A study of Mus musculus with 12 samples.

Results

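Exonic CpGs outside promoters were examined in PKD1-Het cells, proximal tubule epithelial cells of mice that carry 1 working copy of Pkd1, a gene whose loss causes polycystic kidney disease. A CpG was taken when it lay on an autosome, in an exon of a protein-coding gene of the GENCODE M1 annotation (mm9) and outside every promoter, which here ran from 2000 bp upstream to 500 bp downstream of any transcript start. It also needed 5 or more reads in at least 2 PBS, 2 F-MTAza and 2 NP-MTAza libraries. This left 119704 exonic CpGs in 11356 genes, out of 1291894 CpGs with that coverage, of which 1260204 were autosomal. Of the exonic CpGs, 119700 lay on a CG of the mm9 sequence. Coding sequence held 93187 of them, 3′ UTRs 16914, 5′ UTRs 2139, and 7464 lay in exons or exon parts of other kinds. They were compared with 304204 CpGs in introns of the same genes.

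Methylation was read by reduced representation bisulfite sequencing, in which DNA is cut with MspI at CCGG, short fragments are kept and unmethylated cytosines are converted. All libraries came from Pkd1 heterozygous cells of mice that also carry the SV40 large T antigen, used at passage 3 and treated for 24 h. The 4 groups of 3 libraries received PBS, 50 µM Aza, a free combination of that Aza, metformin (300 µM) and tolvaptan (10 µM), called F-MTAza, or those 3 drugs as a micelle formulation, called NP-MTAza. In the micelles, Aza and tolvaptan were held in the core and metformin was bound to the shell. Aza is a cytosine analogue that traps DNA methyltransferases, metformin activates AMPK and tolvaptan blocks the vasopressin V2 receptor. Nothing in the labels says that the replicates were separate cultures, so p-values measure only the spread between these libraries. The identity of the cells rests on the labels, since marker expression was not measured here.

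Aza replicates 1 and 2 were left out. Across CpGs, the rank correlation of their methylation levels with those of the other 10 libraries lay between -0.00379 and 0.00254, whereas the other 10 libraries correlated with each other at 0.633 to 0.830. Read numbers showed the same split, with medians of 0.00958 and 0.479. Aza is therefore represented by replicate 3 alone, given as a value with no test. The median depth per exonic CpG was 8 to 21 reads in the PBS and combination libraries, so that levels of single CpGs in single libraries carry a wide counting error. An exonic mean over a library rests on 1211055 to 3173868 read counts summed over CpGs, where a read over several CpGs counts for each.

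In mammals, the bodies of genes are methylated at most of their CpGs, in contrast to active promoters, and exons usually carry more methylation than the introns around them. DNMT1 copies the pattern onto the new strand at each replication, and DNMT3A and DNMT3B add methylation anew. Where DNMT1 is trapped by Aza, newly made strands stay unmethylated.

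The exonic CpGs can be seen in 2 stretches of coding sequence that show the low end of the response. They were taken among 2648 windows of 120 bases in 383 genes, each with at least 8 exonic CpGs read in all 9 PBS and combination libraries and a PBS level of at least 70%, as the pair with the smallest fall. The median fall over the windows was 18.99 points. The sequences are from mm9, 5′ to 3′ on the coding strand, and capitals mark the CpGs whose reads were used.
Kcna6: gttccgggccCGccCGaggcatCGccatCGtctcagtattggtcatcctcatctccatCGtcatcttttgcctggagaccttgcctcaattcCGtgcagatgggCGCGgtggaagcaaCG
Rasip1: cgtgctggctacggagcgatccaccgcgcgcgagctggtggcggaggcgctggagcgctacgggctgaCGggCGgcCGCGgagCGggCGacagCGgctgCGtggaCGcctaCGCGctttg

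Kcna6 encodes a voltage-gated potassium channel from a single coding exon, and its window (chr6:126689318-126689437, minus strand) stayed within the spread of the libraries. Levels there were 77.9%, 63.0% and 77.1% in PBS, 64.4%, 77.0% and 71.6% in F-MTAza and 65.7%, 76% and 69.7% in NP-MTAza. Aza replicate 3 was lower than all of them, at 45.5%. The window of Rasip1, a gene for a Ras-interacting protein of endothelial cells, lay in exon 3 of 12 at chr7:52884126-52884245 on the plus strand and held 22 CpGs. PBS libraries had 91.9%, 85.7% and 93.5%, F-MTAza 82.9%, 89.3% and 98.2% and NP-MTAza 78.4%, 93.2% and 84.0%. The windows were chosen by their change, so no test is given.

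Exonic CpGs lost a large part of their methylation within 24 h of the combination, whether the drugs were free or in micelles. The mean exonic level was 82.4%, 84.0% and 82.0% in the 3 PBS libraries, 57.8%, 57.1% and 58.4% in F-MTAza and 56.0%, 56.5% and 54.6% in NP-MTAza. Group means were 82.8% ± 1.07 (SD, n = 3), 57.8% ± 0.648 and 55.7% ± 0.986, and no combination library came near a PBS library. The 6 combination libraries differed from PBS by -26.1 points (p = 0.0119 by exact permutation, two-sided, which is the least that 6 against 3 libraries allow). F-MTAza differed from PBS by -25.0 points and NP-MTAza by -27.1 points, each with an exact permutation p = 0.10, the smallest that 3 against 3 can give. NP-MTAza lay below F-MTAza in every library, with a difference of -2.14 points (p = 0.10, exact permutation). Aza replicate 3, without the other 2 drugs, stood at 54.2%. All comparisons share the same 3 PBS libraries.

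**Figure D1:**
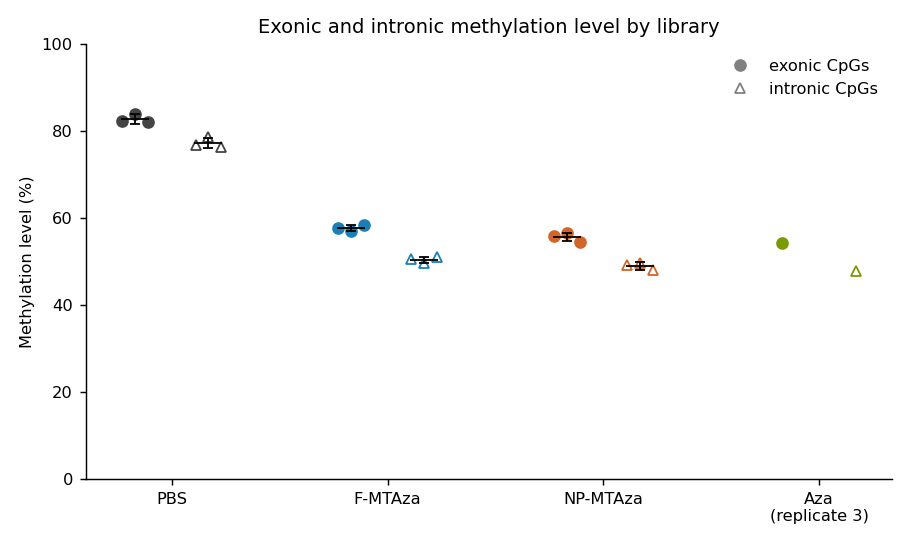
Mean methylation (percent) of exonic CpGs and of introns of the same genes in each library, by group, with points for libraries and bars for mean and SD, and Aza as replicate 3 alone. Exonic PBS libraries sit between 82.0% and 84.0%, and combination libraries between 54.6% and 58.4%.

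After treatment most exonic CpGs were at intermediate levels, and few more were unmethylated than before. In PBS, 66.0% of the exonic CpGs had a pooled level of 90% or more, against 4.76% in F-MTAza and 1.86% in NP-MTAza. The share between 40% and 80% was 13.05% in PBS, 64.3% in F-MTAza and 71.1% in NP-MTAza. The share under 10% was 5.80%, 7.29% and 7.12%. Median levels were 95.1%, 62.5% and 60%. Among the 46424 exonic CpGs that all 9 libraries had read 5 or more times, 95.3% were lower in the combination, with a median change of -26.7 points and 5th and 95th percentiles of -45.1 and -0.441 points. Of these CpGs, 22608 had every combination library below every PBS library, which was 48.7% (background over all CpGs 40.9%), and 3 had the opposite (background 0.00766%). Of 112576 intronic CpGs, 53.4% had no overlap in the lower direction.

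**Figure D2:**
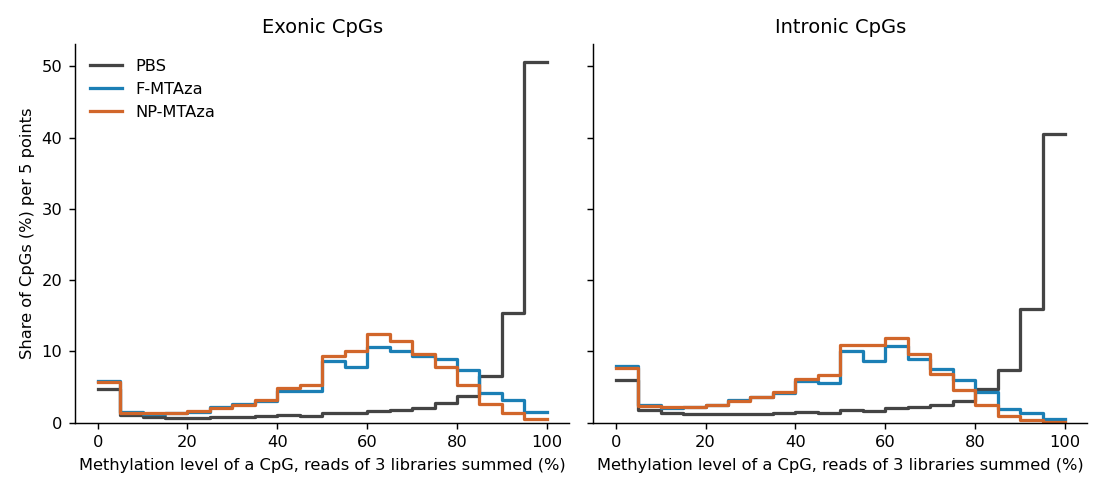
Share of exonic (left) and intronic (right) CpGs (percent, y axis) by pooled methylation level (percent, x axis) in PBS, F-MTAza and NP-MTAza. The PBS curve peaks at full methylation, where 66.0% of exonic CpGs are at 90% or more, and both combination curves peak between 40% and 80%.

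Introns of the same genes were less methylated than exons before treatment and lost slightly more. Intronic means were 77.3% ± 1.23 in PBS (n = 3), 50.4% ± 0.709 in F-MTAza and 49.0% ± 0.863 in NP-MTAza, a change of -27.6 points, and over all CpGs exons kept 1.51 points more (p = 0.0119, exact permutation). Because a CpG can lose only what it has, exons and introns were set against each other within 10 classes of pooled PBS level. Exonic minus intronic levels were then 0.293, 0.371 and 0.283 points in PBS, 3.88, 4.12 and 4.00 points in F-MTAza, and 3.56, 3.49 and 3.40 points in NP-MTAza. All 6 combination libraries lay above all PBS libraries, and exons kept 3.42 points more than introns (p = 0.0119, two-sided exact permutation test). The PBS libraries set the classes, so their own values are small by construction. With classes set by 1 PBS library, which was then left out, exons kept 3.04 to 3.23 points more (p = 0.0357 in each, exact permutation). In Aza replicate 3 the exonic minus intronic level was 3.26 points. F-MTAza showed 3.68 and NP-MTAza 3.16 points relative to PBS, and these differed by -0.518 points (p = 0.10, exact permutation). The last value was -0.231 points (p = 0.4, exact permutation) with CpGs weighted by reads, and -0.222 with CpG number held equal as well.

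This difference was smaller when the number of CpGs in the surrounding sequence was held equal, and its cause was not tested. Exonic CpGs had a median of 8 CpGs in the surrounding 200 bp and intronic CpGs 5. With PBS level and CpG number held equal together, exons kept 1.08 points more (p = 0.0119, exact permutation). With each single CpG number held equal, a setting chosen after seeing the data, the value was 0.659 points (p = 0.0119, exact permutation). Weighting CpGs by reads gave 2.14 points. The difference kept its direction under each of these settings and was smallest where CpG number was matched most closely.

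Exonic CpGs that were nearly fully methylated before treatment lost the most points. The 79029 exonic CpGs at 90% or more in PBS went from 97.2% ± 0.281 (n = 3) to 66.7% ± 1.59 (n = 6), a change of -30.5 points, against -34.4 points for introns of that class. CpGs between 40% and 60% in PBS changed by -15.95 points in exons and -18.66 in introns. Exonic means went from 25.8% to 17.8% between 10% and 40% in PBS and from 50.7% to 34.8% between 40% and 60%. Between 60% and 90% they went from 79.4% to 54.2%. Relative to the PBS level, the exonic loss was thus similar in all classes from 10% upward. The 6939 exonic CpGs under 10% in PBS had 2.56% ± 1.31 before and 1.97% ± 0.0843 after (p = 0.298, exact permutation). Exons kept more than introns in each class from 30% upward (p = 0.0119 in each, exact permutation, unadjusted over the 10 classes), with differences of 1.498 points at 30% to 40% and 3.90 points at 90% or more. Under 10% in PBS the difference had the opposite sign, -0.132 points, and at 20% to 30% it was 0.935 points (p = 0.0476 in each, exact permutation, unadjusted).

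Among exonic CpGs at 90% or more in PBS, those with few CpGs around them lost more than those in dense stretches. With 1 or 2 CpGs in 200 bp the change was -36.8 points (2412 CpGs), with 7 or 8 it was -31.7 points (15888 CpGs) and with 17 or more it was -19.9 points (8314 CpGs). The 9 classes of CpG number lay in strict order. All 9 started between 96.5% and 97.5%, and after treatment their means ran from 59.7% ± 1.30 to 77.5% ± 2.03 (n = 6). Introns showed the same order, from -37.5 to -21.5 points. Within a class, exons and introns differed by between -0.883 and 1.57 points, and none of the 9 differences passed an adjusted p of 0.05 (smallest 0.0536, exact permutation with Benjamini-Hochberg adjustment, the smallest unadjusted p being 0.0119). That 0.0119 is also the least that 6 against 3 libraries allow, so a single class at this value could not pass over 9 classes. This result therefore does not show that exons and introns lost alike. At equal PBS level, exonic CpGs with 3 or fewer CpGs in 200 bp differed from those with 8 or more by -7.45 points in their change (p = 0.0119, adjusted p = 0.0132 over 10 pairs of classes, exact permutation).

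**Figure D3:**
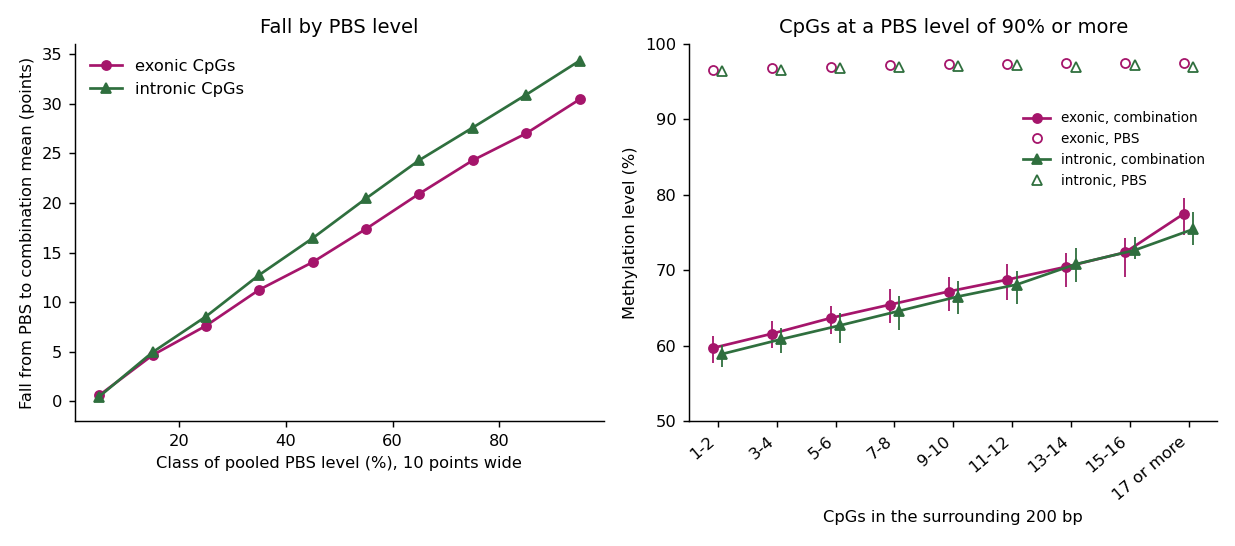
Left, fall in methylation from PBS to the combination (points) of exonic and intronic CpGs by class of PBS level (percent), and right, methylation level (percent) of CpGs at 90% or more in PBS by the number of CpGs in the surrounding 200 bp, with filled points for the combination mean, vertical lines for the range of the 6 libraries and open points for the PBS mean. On the left the lines part with rising PBS level, to 3.90 points both at 80% to 90% and at 90% or more, and on the right they run close together and rise with CpG number, the exonic change going from -36.8 to -19.9 points.

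The bases beside the CpG also went with the loss. Among exonic CpGs at 90% or more in PBS, CCGG, the site MspI cuts, changed by -37.1 points to 58.7% ± 2.44 (n = 6, 4515 CpGs). The other 9 contexts, with both strands counted together, ranged from -31.8 points at TCGA to -27.7 points at GCGC, which kept 69.99% ± 1.878. ACGT changed by -31.4 points and CCGC by -28.5 points. CCGG sites form the fragment ends in this assay, and the part of that position in the value was not tested. With PBS level, CpG number and neighbouring bases all held equal, exons kept 1.10 points more than introns (p = 0.0119, exact permutation), a setting chosen after seeing the data.

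Exons near the start of genes stood apart before treatment. CpGs of first exons, beyond the promoter, averaged 53.8% ± 1.77 in PBS (n = 3) and 39.8% ± 1.13 in the combination (n = 6). Internal exons went from 86.7% ± 0.919 to 58.8% ± 1.503, last exons from 84.2% ± 1.11 to 58.0% ± 1.37, and genes of a single exon from 68.9% ± 0.457 to 50.5% ± 1.27. The 5′ UTR averaged 52.9% ± 1.47 and then 37.5% ± 1.22, coding sequence 83.5% ± 1.12 and then 57.8% ± 1.47, and the 3′ UTR 83.0% ± 0.844 and then 54.6% ± 1.08. Among CpGs at 90% or more in PBS, the change grew along the gene, from -23.9 points in exon 1, single exons included, and -28.7 in exon 2 to -30.8 in exons 4 to 9 and -32.1 from exon 20 on. Exons are numbered along the transcript with the longest coding sequence of each gene, so that later classes hold CpGs of genes with many exons. CpG number was not held equal across these exon numbers, and no test was made of them.

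At equal PBS level, 9 of 10 pairs of exonic classes differed in their change (adjusted p = 0.0132 in each, exact permutation with Benjamini-Hochberg adjustment). Here too the PBS libraries set the classes of PBS level, so their own differences are small by construction. Coding CpGs kept 2.74 points more than those of the 3′ UTR, and first exons kept 3.46 points more than internal ones. Exons of 500 bp or more kept 2.58 points more than exons under 200 bp, and CpGs under 10 kb from the gene start kept 2.82 points more than those over 50 kb away. The difference of coding from 5′ UTR CpGs was -2.21 points, and that of CpGs within 50 bp of an exon edge from those farther in was -1.59 points. Last exons kept 1.00 points more than internal ones. With classes set by a single PBS library the value for first exons was 4.96 to 5.58 points, and with CpGs weighted by reads that for closeness to the gene start was 1.499 points. With CpG number held equal as well, chosen after seeing the data, these values became 0.861, 1.34, 0.903, 1.25, -1.35, -0.127 and 0.570 points, in the same order. First exons and closeness to the gene start then had an adjusted p = 0.0357 over 9 pairs, and long exons and last exons 0.0429. The 3′ UTR (adjusted p = 0.0536), 5′ UTR (0.0765) and exon edge (0.214) values no longer passed in this exact permutation test.

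Differences between codon positions were under 1 point at equal PBS level, and which of them passed the test depended on the setting. CpGs with their C at the first codon position averaged 85.5% ± 1.02 in PBS (n = 3), those at the second 82.2% ± 1.24 and those at the third 82.8% ± 1.16, and their changes were -26.7, -25.2 and -25.3 points. At equal PBS level, the first position differed from the third by -0.638 points (adjusted p = 0.0132, exact permutation), which became -0.206 points with CpG number held equal (adjusted p = 0.147, exact permutation) and 0.0858 when CpGs were weighted by reads. The second position differed from the third by -0.142 points (p = 0.0833, exact permutation), and without PBS replicate 1 by -0.226 points (p = 0.0357, exact permutation). Its value was -0.240 points with CpG number held equal (adjusted p = 0.0357, exact permutation) and -0.720 points when CpGs were weighted by reads (p = 0.0119, exact permutation).

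Methylation stepped up where introns meet exons, and the step was still there after treatment. Upstream of internal exons, CpGs 26 to 50 bp inside the intron had 82.2% ± 0.871 in PBS (n = 3), 53.8% ± 0.514 in F-MTAza and 52.2% ± 1.22 in NP-MTAza. In the exon, 50 to 74 bp past the acceptor site, the levels were 87.1% ± 0.709, 59.9% ± 0.871 and 57.8% ± 1.10, so that each step was larger than the SDs of both bins. At the donor side, exonic CpGs 25 to 49 bp from the junction had 87.8% ± 0.918 in PBS and 60.2% ± 0.519 and 58.2% ± 1.32 in F-MTAza and NP-MTAza, against 82.9% ± 0.608, 55.5% ± 0.903 and 54.0% ± 1.26 at 26 to 50 bp into the intron. The change from PBS lay between -28.0 and -29.3 points in every bin of both profiles. Among CpGs at 90% or more in PBS it lay between -31.0 and -32.3 points in exonic bins and between -32.9 and -34.4 points in intronic bins.

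**Figure D4:**
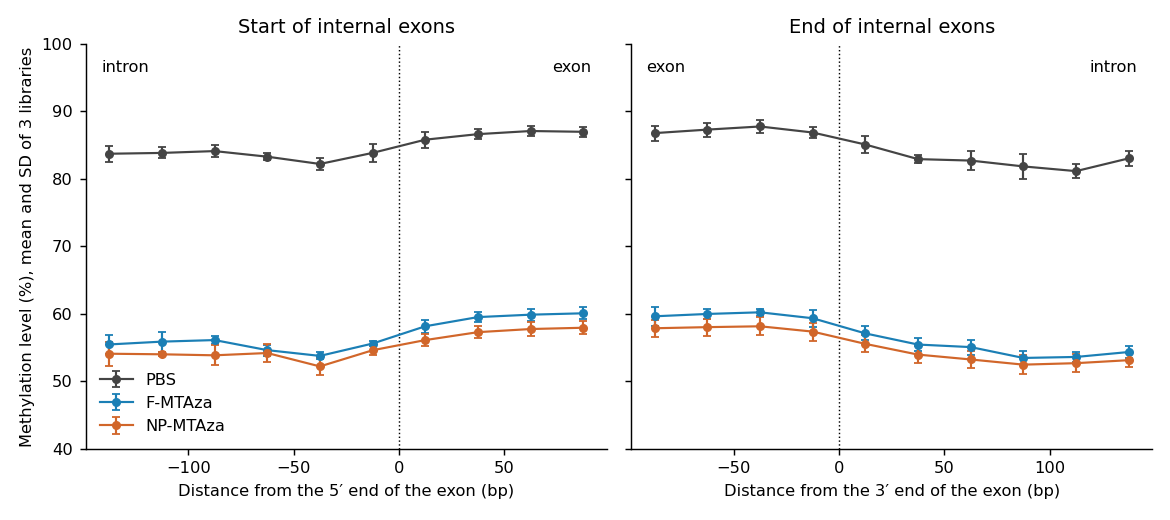
Mean methylation (percent) by distance (bp) from the acceptor and donor splice sites of internal exons of at least 100 bp, in bins of 25 bp, with lines for PBS, F-MTAza and NP-MTAza and error bars for the SD of 3 libraries. All 3 lines rise from intron to exon, for PBS from 82.2% to 87.1% across the acceptor site.

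Every autosome took part. Exonic levels changed by -24.2 points on chromosome 13 and by -27.3 points on chromosome 1, the extremes of the 19 autosomes, and on all 19 the combination libraries lay below the PBS libraries.

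Single CpGs were tested for lower and higher methylation over all CpGs with enough reads, by a likelihood ratio test on pooled reads, and called at a Benjamini-Hochberg q below 0.01 where the level moved by 35 points or more. In F-MTAza against PBS, 12027 of 50399 exonic CpGs were called lower, which was 23.9% where the background over all CpGs tested was 22.0%, and 3 were called higher (background 0.00449%). In introns 30.6% were called lower. In NP-MTAza against PBS, 20149 of 68796 exonic CpGs were called lower, which was 29.3% against a background of 25.9%, and 1 was called higher (background 0.00479%). The intronic share was 35.2%. Among CpGs at 90% or more in PBS, exonic shares were 29.7% and 37.3%, below the intronic 41.5% and 49.0% and the 36.7% and 44.6% of all CpGs in that class. Exonic CpGs with no overlap between groups numbered 28321 in the first comparison, or 56.2% (background 47.2%), and 44699 in the second, or 65.0% (background 51.1%). The median depth of the exonic CpGs tested was 32 pooled F-MTAza reads and 43 pooled NP-MTAza reads, so the numbers of calls are not compared between the 2 treatments. The counts depended on the test, which treats pooled reads as independent: limma on single CpGs called 1820 and 5076 lower, or 3.61% and 7.38% (background over all CpGs 2.85% and 5.53%). A version scaled for the spread between libraries with an F reference called 0 and 0 exonic CpGs, and 0 and 0 over all CpGs. Of the 50399 and 68796 exonic CpGs tested, 25026 and 39382 were lower at an unadjusted p under 0.05 in this F version. The share of all CpGs at that p was not computed, so these numbers are no result about exons.

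Summed over the exons of each gene, the loss was nearly general. Of 3128 genes with at least 5 exonic CpGs read in all 9 libraries, limma called 2761 lower with F-MTAza (88.3%) and 2851 lower with NP-MTAza (91.1%), where the adjusted p was below 0.05 and the level moved by 10 points or more, and 2699 in both. The median changes were -26.0 and -28.4 points. Calls of higher methylation numbered 0 in both comparisons (0.0%), with 1 gene in each past the adjusted p at any size. Every combination library lay below every PBS library in 2694 genes (86.1%). Between NP-MTAza and F-MTAza, limma called 0 genes in either direction (0.0%), with 320 at an unadjusted p under 0.05 and a median difference of -2.004 points.

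Among 1345 genes with at least 10 such CpGs, the 5 with the largest falls had PBS levels of 94.4% to 98.0%. The median over all genes tested was 92.6%, and a fall of this size needs a high start. Kcnh3 (ENSMUSG00000037579.5, chr15:99055292-99073248), a potassium channel gene, had exonic levels of 94.4%, 100% and 96.3% in PBS, 41.5%, 74.3% and 46.6% in F-MTAza and 34.5%, 32.9% and 70.5% in NP-MTAza. Its treated libraries varied widely without reaching PBS. The mean change was -46.9 points (limma adjusted p = 0.000701 and 0.000263). Foxk1, a forkhead transcription factor gene (ENSMUSG00000056493.7, chr5:142877451-142937968), had 98.1%, 94.6% and 94.0% in PBS, 58.2%, 44.4% and 48.6% in F-MTAza and 60.6%, 42.4% and 54.7% in NP-MTAza. Its change was -44.1 points (limma adjusted p = 3.84e-05 and 2.87e-05). Myst2, a histone acetyltransferase gene, changed by -44.4 points, Wdr7 by -43.2 and Sept8, a septin gene, by -43.2. These 5 genes were chosen among those called in both comparisons and without overlap, so neither trait is a result. Each rests on 10 to 14 CpGs.

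The 5 genes with the smallest changes, among those at 70% or more in PBS, kept most of their exonic methylation. Dact3 (ENSMUSG00000078794.2, chr7:17460666-17472650), an inhibitor of Wnt signalling, had 98.8%, 99.0% and 99.3% in PBS, 97.1%, 88.8% and 94.6% in F-MTAza and 93.2%, 92.7% and 86.3% in NP-MTAza. The groups did not overlap, and the changes of -5.50 and -8.26 points were under the 10 points a call needs (limma adjusted p = 0.0252 and 0.00461). Kcna6 (chr6:126658347-126690680) had 79.4%, 66.0% and 77.0% in PBS, 64.5%, 77.2% and 71.1% in F-MTAza and 64.2%, 69.9% and 68.6% in NP-MTAza, and its groups overlapped. Its difference from PBS was -4.88 points (limma adjusted p = 0.543 and 0.223), whereas Aza replicate 3 stood at 47.3%. Mean differences from PBS were -6.61 points for Tlx2, a homeobox gene, -7.35 for Gal3st3, a sulfotransferase gene, and -8.09 for Gm996. Of the 5, Gm996 alone was called, in NP-MTAza (limma adjusted p = 0.0189), and that call was lost on leaving out PBS replicate 1, PBS replicate 3 or the third NP-MTAza replicate (adjusted p = 0.0668, 0.0732 and 0.0617). The Tlx2 value passed in NP-MTAza without NP-MTAza replicate 3 (-18.8 points, limma adjusted p = 0.00719). With all exonic CpGs of the gene in place of those read in all 9 libraries, Kcna6 and Tlx2 passed in NP-MTAza, by -16.2 and -13.2 points, and Gal3st3 in both comparisons, by -14.1 and -11.6 points.

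**Figure D5:**
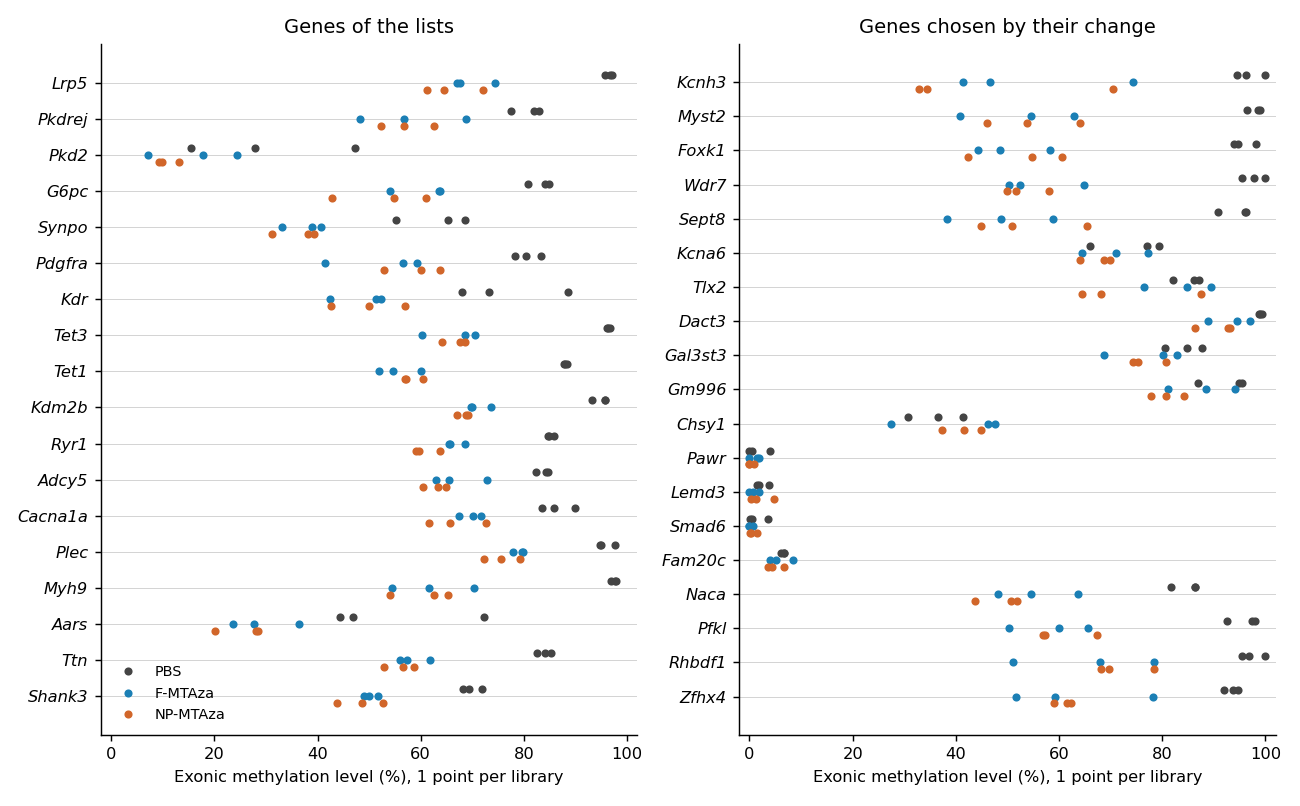
Exonic methylation (percent) of named genes in each PBS, F-MTAza and NP-MTAza library, with 1 point per library, for genes of the lists (left) and genes chosen by their change (right). The genes with the largest fall were chosen to have no overlap with PBS, and Kcnh3 lies -46.9 points from it. Those with the smallest change lie close to PBS, as Kcna6 does at -4.88 points.

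Most genes tested from the list of polycystic kidney disease lost exonic methylation. Of 33 genes, 26 had exonic CpGs and 13 could be tested, of which 12 were called lower with F-MTAza and 13 with NP-MTAza. The median change was -28.7 points beside -27.5 over all genes tested, of which 88.3% and 91.1% were called lower. Pkd1 itself, added to the named genes after its values were seen because it defines the cells (ENSMUSG00000032855.4, chr17:24686895-24733459), had 86.6%, 93.9% and 88.1% in PBS, 44.2%, 57.1% and 56.8% in F-MTAza and 70.3%, 57.6% and 55.4% in NP-MTAza over 6 exonic CpGs. Its groups did not overlap (limma adjusted p = 0.000103 and 0.000324). Lrp5, a Wnt co-receptor gene (ENSMUSG00000024913.9, chr19:3584825-3686564), had 95.8%, 97.01% and 96.7% in PBS, 67.6%, 67.0% and 74.4% in F-MTAza and 64.5%, 72.1% and 61.1% in NP-MTAza. Its groups were apart in every library (limma adjusted p = 5.52e-05 and 2.92e-05). Pkdrej, a relative of Pkd1 expressed in testis, changed by -23.2 points from 80.8% ± 2.89 (n = 3). Pkd2, which encodes the channel partner of polycystin 1 (ENSMUSG00000034462.8, chr5:104888469-104934838), had lower and more scattered levels of 28.0%, 47.3% and 15.6% in PBS, 7.22%, 17.7% and 24.3% in F-MTAza and 9.30%, 13.1% and 9.81% in NP-MTAza. PBS and F-MTAza overlapped, and the changes were -13.8 points (limma adjusted p = 0.0901) and -19.5 points (0.0210). The NP-MTAza call was lost without PBS replicate 2 (-11.0 points, adjusted p = 0.102), the first NP-MTAza replicate (0.0525) or the third (0.0564), and F-MTAza passed without PBS replicate 3 (-21.2 points, limma adjusted p = 0.0184) or F-MTAza replicate 3 (-17.8 points, 0.0469) and with all exonic CpGs of the gene (-22.0 points, 0.0120).

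In the list of cAMP, calcium and AMPK signalling, 24 of 56 genes were tested and all 24 were called lower in both comparisons. Their median was -27.9 points beside -27.5 over all genes tested, of which 88.3% and 91.1% were called lower. Adcy5, an adenylyl cyclase gene (ENSMUSG00000022840.7, chr16:35154963-35305823), had 84.2%, 82.4% and 84.7% in PBS, 65.4%, 72.9% and 63.0% in F-MTAza and 60.5%, 64.9% and 63.4% in NP-MTAza, with no overlap (limma adjusted p = 0.00226 and 0.000572). Cacna1a, a calcium channel subunit gene, changed by -18.2 points and Ryr1, the calcium release channel of skeletal muscle, by -21.4 points. These 3 were the list's genes with the most exonic CpGs, and their changes were smaller than the list's median.

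All genes that could be tested among those that write, read and erase DNA methylation lost exonic methylation. Of 29, 10 were tested and 10 called lower in both comparisons, with a median of -30.0 points. Over all genes tested, 88.3% and 91.1% were called lower, with a median of -27.5 points. Tet3, which oxidizes 5-methylcytosine (ENSMUSG00000034832.8, chr6:83312367-83391672), had 96.2%, 96.3% and 96.7% in PBS, 68.6%, 70.4% and 60.3% in F-MTAza and 64.1%, 68.6% and 67.6% in NP-MTAza (limma adjusted p = 4.05e-05 and 2.73e-05). Tet1, of the same family, changed by -31.1 points from 88.0% ± 0.341 (n = 3), and Kdm2b, a histone demethylase gene whose protein binds CpGs, by -25.2 points from 94.9% ± 1.497. None of the 3 had overlapping groups.

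Lists of genes active in the proximal tubule, in other kidney cells or in other tissues had similar medians. Of 40 proximal tubule genes, 5 were tested, and 4 were called lower with F-MTAza and 5 with NP-MTAza, the median being -26.7 points. G6pc, the glucose-6-phosphatase of gluconeogenesis, changed by -26.7 points from 83.3% ± 2.20 (n = 3). Cyp27b1, with 18 exonic CpGs, could not be tested. Of 33 markers of other kidney cell types, 11 were tested and 9 and 10 were called lower, with a median of -27.0 points. Synpo, of podocytes, changed by -26.1 points, Pdgfra, of interstitial cells, by -25.0, and Kdr, of endothelium, by -27.3. Of 45 housekeeping genes, 9 were tested and 9 called lower in both comparisons, with a median of -27.1 points. Of 52 neuronal and muscle genes, 24 were tested and 21 and 23 were called lower, with a median of -25.3 points. No list had a gene called higher. The lists differ in how many of their genes were covered, and the shares called stand beside 88.3% and 91.1% of all genes tested.

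Ttn, the giant protein of the sarcomere, had the most exonic CpGs of any gene, 306, of which 144 were read in all 9 libraries (ENSMUSG00000051747.7, chr2:76542037-76820604). Its level was 84.2%, 85.2% and 82.6% in PBS, 56.0%, 57.4% and 61.7% in F-MTAza and 56.6%, 58.8% and 52.9% in NP-MTAza (limma adjusted p = 0.000154 and 8.11e-05). Plec, a cytoskeletal linker with 215 exonic CpGs (ENSMUSG00000022565.8, chr15:76001404-76063004), kept more, at 79.8%, 77.8% and 79.6% in F-MTAza and 79.2%, 75.6% and 72.3% in NP-MTAza from 94.9%, 97.6% and 94.8% in PBS. Both were apart from PBS in all libraries. Myh9, non-muscle myosin, changed by -36.1 points and Aars, an aminoacyl-tRNA synthetase, by -27.1 points from a PBS level of 54.5% ± 15.4 (n = 3). Shank3, a scaffold protein of synapses, changed by -20.6 points from 69.9% ± 1.91.

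Within genes, the change of exons was set against that of introns in 1826 genes. On the arcsine scale of the test, limma found 41 genes whose exons fell less than their introns (2.25%) and 128 whose exons fell more (7.01%). At an unadjusted p under 0.05 there were 456 genes. PBS level was not held equal here, and a CpG can lose only what it has. These calls therefore do not compare exons and introns from an equal start. The numbers were 25 and 51 without PBS replicate 1, 24 and 53 without PBS replicate 2 and 21 and 40 without PBS replicate 3. With only CpGs at 90% or more in PBS, chosen after seeing the data, limma called 0 and 0 of 1107 genes, with 72 at an unadjusted p under 0.05. The median difference was 0.350 points but -0.0329 on the arcsine scale, so the 2 scales differ in sign. In the genes named here, exons and introns already differed in PBS. Chsy1, an enzyme of chondroitin synthesis (ENSMUSG00000032640.8, chr7:73254401-73318675), had exonic levels of 30.6%, 41.3% and 36.6% in PBS and 27.4% to 47.7% in the combination, while its introns went from 96.7% ± 1.28 (n = 3) to 62.2% ± 3.20 (n = 6). Pawr, Lemd3, Smad6 and Fam20c had exons at 1.48% to 6.46% and introns at 87.3% to 96.6% in PBS. In the opposite direction, Pfkl, a phosphofructokinase of glycolysis (ENSMUSG00000020277.8, chr10:77449692-77472828), had exons at 97.99%, 92.5% and 97.4% in PBS, 50.3%, 65.7% and 59.9% in F-MTAza and 56.9%, 67.4% and 57.2% in NP-MTAza, with introns at 28.1% ± 8.90 in PBS and 22.9% ± 6.81 in the combination. Naca, Rhbdf1 and Zfhx4 also had methylated exons beside introns at 0.333% to 5.25% in PBS, and Naca and Zfhx4 lost the call without PBS replicate 1 or PBS replicate 3.

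These counts depended on the CpGs and libraries used. With CpGs at 90% or more in PBS alone, chosen after seeing the data, limma called 0 of 1107 genes in either direction, with 72 at an unadjusted p under 0.05. Exons then kept more in 724 genes (65.4%), with a median of 2.21 points. Without PBS replicate 1, 2 or 3, exons fell less in 25, 24 and 21 genes and fell more in 51, 53 and 40. On untransformed levels, again with PBS level not held equal, the counts were 29 and 30.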

How the data were processed

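Reads were trimmed with Trim Galore 0.4.4 and aligned to mm9 with Bismark 0.20.1 and Bowtie2 by the authors, who merged the strands of each CpG and listed CpGs with 5 or more reads. The deposited tables give, per library, for each CpG, its methylated and total read counts together with the percent of methylated reads. All levels were computed from the deposited counts, and each CpG counted equally in a library's mean. Read counts summed over all CpGs were 25336747 to 65817118 per library, with a read counted at each CpG it covers. The median CpG was read 7 to 9 times. Intervals and SDs do not cover errors of PCR or conversion.

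Means of libraries were compared by two-sided exact permutation tests. Single CpGs read at least 5 times by all 6 libraries of a comparison were tested over the whole table with logistic regression on pooled reads and its likelihood ratio test. Exons of genes, with at least 5 CpGs read in all 9 libraries, were tested by limma 3.58.1 (R 4.3.3) on the arcsine square root of summed levels in a model of 3 groups, with Benjamini-Hochberg adjustment over all genes tested. Exon minus intron values per gene were tested likewise. Other steps used Python 3.11.15, numpy 2.4.6, pandas 2.3.3, scipy 1.17.1, pysam 0.24.0, samtools 1.23.1 and matplotlib 3.10.9. The tests were tried on simulated data.

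The genes named were the 3 with the most exonic CpGs of each of 7 lists and, among genes with at least 10 CpGs, the 5 with the largest fall called in both comparisons without overlap, the 5 with the smallest change from a PBS level of at least 70%, and the 5 in each direction with the largest exon minus intron change past the test. Pkd1 was added. A few genes and windows that these rules picked are left out. The CpGs, lists and rules were chosen with earlier results of these data known. Alternatives changed the depth, the CpGs used, their weights, the classes held equal, the annotation, the tests, the thresholds and the libraries. Whether replicate numbers pair libraries was checked on deviations of single CpGs, and no pairing was seen, though counting error at these depths could hide it. Sequences were read from the mm9 genome. Expression and chromatin were not analysed here.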

Additional observations from a re-analysis of the deposited data

How the results depend on the processing

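The exonic level, its difference from introns and the pairs of classes kept their direction under every setting tried, leave-one-out included, with 1 exception among those that passed the test: codon position 1 against 3 turned to 0.0858 points when CpGs were weighted by reads. Leaving out 1 library at a time gave -26.5 to -25.5 points for the exonic change, -25.4 to -24.4 for F-MTAza, -27.5 to -26.5 for NP-MTAza and 3.35 to 3.49 for exons minus introns. Exons of protein-coding transcripts only gave 3.53 points and introns within 500 bp of an exon 2.85 points for the last value, and classes set by 1 PBS library 3.04 to 3.23 points. With 10 reads in place of 5, coding against 5′ UTR (-2.04 points) and codon position 1 against 3 (-0.350) no longer passed. Weighted by reads, last against internal exons (0.420) no longer passed and codon position 2 against 3 (-0.720) did, as it did with classes set by PBS replicate 1 (-0.169). That pair ranged from -0.226 to -0.0796 points on leaving out 1 library and from -0.720 to 0.123 points over all settings. With PBS level and CpG number held equal, chosen after seeing the data, coding against 5′ UTR (-1.35), codon position 1 against 3 (-0.206) and the exon edge (-0.127) no longer passed, nor after adjustment over the 9 pairs did coding against 3′ UTR (0.861), and codon position 2 against 3 (-0.240) did pass. Classes set by 1 PBS library gave 4.96 to 5.58 points for first against internal exons, and weighting by reads gave 1.499 points for closeness to the gene start and -0.231 for NP-MTAza minus F-MTAza in exons minus introns. The cause was not tested.

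Counts of calls depended on the test and its limits. For F-MTAza and NP-MTAza, the numbers called lower were 23500 and 38070 at 25 points, with 7 and 5 higher, 2142 and 7079 with 10 reads in all 6 libraries, where 9980 and 25319 were tested, and 1820 and 5076 by limma. Exonic shares were 46.6% and 55.3% at 25 points (all CpGs 39.9% and 45.2%), 21.5% and 27.96% with 10 reads (20.7% and 25.4%) and 3.61% and 7.38% by limma (2.85% and 5.53%). A test scaled for the spread between libraries with an F reference called 0 and 0 (all CpGs 0 and 0). One with a chi-square reference, chosen after seeing the data, called 10562 and 18293, or 20.96% and 26.6% (all CpGs 18.8% and 22.6%). Calls of higher methylation were 0 under these last 4 settings, except 1 in NP-MTAza by the chi-square version, and at an unadjusted p under 0.05 limma had 38 and 29 and the F version 4 and 4. Leaving out 1 library gave 12537 to 16601 and 20268 to 25944 lower, and 2 to 11 and 2 to 6 higher. More CpGs were tested in these runs, since reads were needed only in the remaining libraries. Shares were not computed for them, so the numbers cannot be set against the main counts. Genes called lower numbered 1196 and 1238 with at least 10 CpGs and 5472 and 5620 with all exonic CpGs, where fewer or more genes were tested. Leaving out 1 library gave 2626 to 2770 and 2732 to 2875 lower, and 0 to 1 higher in F-MTAza. Exon minus intron calls were 29 and 85 with 10 CpGs of each kind, 29 and 30 on untransformed levels, 0 and 0 with CpGs at 90% or more in PBS (72 of 1107 genes at an unadjusted p under 0.05), and 21 to 50 and 40 to 127 on leaving out 1 library.

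No pairing by replicate number was seen. Same-numbered libraries correlated in their deviations at -0.00978 to 0.00722 over 46424 CpGs, and the others at -0.00586 to 0.0152. Counting error in single CpGs is large at these depths, so this check cannot exclude a pairing. With a replicate block, the exonic change and the exon minus intron value had an exact permutation p = 0.037, gene calls numbered 2755 and 2860, and exon minus intron calls 41 and 119. Blocked limma called 0 and 0 single exonic CpGs, and 0 and 0 over all CpGs. Of the 50399 and 68796 exonic CpGs tested, 23362 and 38031 were lower at an unadjusted p under 0.05, a share not computed over all CpGs. Medians of 8 to 21 reads per exonic CpG and library limit what can be seen of small changes in single CpGs.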
